A study of Mus musculus with 6 samples.

Results

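The TGF-beta genes described here are the 3 ligands (Tgfb1, Tgfb2 and Tgfb3), the 3 receptors (Tgfbr1, Tgfbr2 and Tgfbr3) and the 4 latent TGF-beta binding proteins (Ltbp1, Ltbp2, Ltbp3 and Ltbp4). These 10 genes were taken by their Ensembl identifiers from a table of 38293 genes, and all 10 were among the 14761 genes that passed the filter on low counts. The counts come from hearts of 3 control and 3 Zeb2 cKO mice, collected 14 days after a myocardial infarction made by tying off the left anterior descending coronary artery permanently. Control mice are labelled WT but, per the methods, carried the loxP-flanked Zeb2 alleles (Zeb2 fl/fl) without Cre. Zeb2 cKO mice carried the same alleles together with a Cre recombinase under the Myh6 promoter, which is active in cardiomyocytes, so Zeb2 was kept in the other cells of these hearts. All mice were adult males on a C57BL/6J background. The labels place the tissue in the border zone of the infarct, whereas the methods describe RNA from the remote zone.

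TGF-beta ligands are secreted as latent complexes, in which the mature dimer stays bound to its own propeptide. Latent TGF-beta binding proteins attach most of these complexes to fibrillin and fibronectin in the extracellular matrix, from which integrins, proteases and thrombospondin can release the active ligand. Active ligand brings Tgfbr2 and Tgfbr1 together, often presented by the co-receptor Tgfbr3, and Tgfbr1 then phosphorylates Smad2 and Smad3. In the injured heart this pathway is known for turning fibroblasts into matrix-producing myofibroblasts.

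The members resemble each other in sequence, and reads of 75 bases were counted. For some pairs, the most alike stretches of that length in the coding sequences are therefore shown, with bases that differ between both genes in capitals. Among the ligands, Tgfb1 (coding bases 891 to 965, counted from the A of the start codon) and Tgfb3 (bases 957 to 1031) matched at 60 of 75 bases, within the part that encodes the mature ligand.

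Tgfb1: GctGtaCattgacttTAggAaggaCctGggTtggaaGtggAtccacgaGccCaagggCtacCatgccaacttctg
Tgfb3: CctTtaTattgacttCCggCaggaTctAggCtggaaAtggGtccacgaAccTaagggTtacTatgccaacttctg

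The closest stretch between any 2 members was in Ltbp1 (bases 4837 to 4911) and Ltbp2 (bases 5161 to 5235), at 63 of 75 bases (84.0%), and the kinases Tgfbr1 (bases 1116 to 1190) and Tgfbr2 (bases 1329 to 1403) matched at 51 of 75.

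Ltbp1: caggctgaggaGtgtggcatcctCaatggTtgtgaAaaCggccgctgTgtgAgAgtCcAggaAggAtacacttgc
Ltbp2: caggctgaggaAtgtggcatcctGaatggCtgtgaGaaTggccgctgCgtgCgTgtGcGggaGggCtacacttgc
Tgfbr1: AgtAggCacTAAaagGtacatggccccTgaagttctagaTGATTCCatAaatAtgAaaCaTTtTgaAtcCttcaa
Tgfbr2: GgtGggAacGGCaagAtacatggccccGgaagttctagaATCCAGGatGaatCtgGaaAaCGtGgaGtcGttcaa

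No pair of members thus shared a coding stretch of read length without at least 12 differences. Against the transcripts of all other genes, the longest coding transcripts of Tgfb1, Tgfbr1, Ltbp1 and Ltbp4 held 0 stretches of at least 75 bases with at least 95% identity. Such stretches covered 11.6% of the Tgfb3 transcript (shared with the unnamed models Gm37804 and Gm48008, neither of which was in the table) and 11.3% of the Ltbp2 transcript. The Ltbp2 stretch is an overlap of 764 exon bases with the antisense gene D030025P21Rik, which had 1 to 7 counts per library, whereas Ltbp2 had 633 to 8849. Libraries were stranded, but the strand setting of the counting is not given in the sources used here, so reads from this overlap cannot be told apart with certainty.

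In build GRCm38, Tgfb1 lies at chr7:25687002-25705077 on the plus strand, Tgfb2 at chr1:186622792-186705989 on the minus strand and Tgfb3 at chr12:86056745-86079041 on the minus strand. Tgfbr1 lies at chr4:47353222-47414931 (plus), Tgfbr2 at chr9:116084293-116175360 (minus) and Tgfbr3 at chr5:107106570-107289629 (minus). Ltbp1 lies at chr17:75005568-75392512 (plus), Ltbp2 at chr12:84783212-84876532 (minus), Ltbp3 at chr19:5740904-5758532 (plus) and Ltbp4 at chr7:27305136-27337692 (minus). All are annotated as protein-coding genes, and counts were summed over their exons.

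ZEB2, a zinc finger transcription factor, is known to bind E-boxes of the form CACCTG. RefSeq windows from 250 bases before to 50 bases after a start were given for 8 of the 10 members (not for Tgfb3 and Tgfbr3). CACCTG on either strand (CAGGTG on the other) was found in windows of 2 members, Ltbp2 and Ltbp4. By comparison, 20.2% of all 32851 windows of this length held it. The upstream parts of these windows are shown for Ltbp2 (chr12:84876533-84876741, minus strand), Ltbp4 (chr7:27337693-27337862, minus strand) and, as a latent binder with 0 matches, Ltbp1 (chr17:75005279-75005528, plus strand), 5′ to 3′ in GRCm38.p6 with the motif in capitals. A match is a description of the letters, not of binding.

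Ltbp2: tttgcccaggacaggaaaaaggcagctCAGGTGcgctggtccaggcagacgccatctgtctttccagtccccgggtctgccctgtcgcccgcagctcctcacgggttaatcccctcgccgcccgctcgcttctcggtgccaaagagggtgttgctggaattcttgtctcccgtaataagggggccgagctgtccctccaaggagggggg
Ltbp4: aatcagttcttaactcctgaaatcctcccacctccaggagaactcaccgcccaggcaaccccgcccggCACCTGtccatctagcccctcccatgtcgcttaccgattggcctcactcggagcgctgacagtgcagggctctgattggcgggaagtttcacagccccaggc
Ltbp1: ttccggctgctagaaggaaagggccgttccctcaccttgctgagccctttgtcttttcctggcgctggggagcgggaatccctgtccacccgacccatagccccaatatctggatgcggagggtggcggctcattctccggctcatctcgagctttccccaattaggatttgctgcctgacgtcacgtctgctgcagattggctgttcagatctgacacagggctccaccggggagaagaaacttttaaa

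Total counts ranged from 37288174 to 51136331 per library, of which 60.55% to 67.03% fell on the 37 mitochondrially encoded genes, and the 10 members together took 12483 to 36714 counts. Values are given below as CPM, counts scaled to the TMM-normalized library size, in the order of replicates 1, 2 and 3. WT replicate 2 stood apart from the other libraries in sums of cell type markers. Earlier results of these data were known, so leaving this library out was not a blind choice. The summed CPM of 12 fibroblast markers in WT replicate 2 was 4.37 times the mean of the other WT libraries. That of 12 macrophage markers was 3.18 times and that of 12 cardiomyocyte markers was 0.539 times. Abundant genes weighed heavily, with Col1a2 at 1466 of 2596, Lyz2 at 419 of 900.5 and Ttn at 22890 of 37960 CPM. Scara5 among the fibroblast markers (0.674 times) and Cd163 among the macrophage markers (0.233 times) went the other way. The main results are therefore given with and without this library.

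Zeb2 itself was at 61.3, 116.1 and 71.9 CPM in WT and at 59.5, 72.6 and 66.5 CPM in Zeb2 cKO hearts. The groups overlapped. The log2 fold change (Zeb2 cKO over WT) was -0.33 (SE 0.25), with an adjusted p of 0.957 from edgeR's quasi-likelihood test, and without WT replicate 2 it was -0.0058. In these counts from all cells of the tissue, loss of Zeb2 from cardiomyocytes was thus not detectable as a difference in Zeb2. The paper, however, reports lower cardiac Zeb2 in Zeb2 cKO mice by qPCR. It also reports the loss from cardiomyocytes after infarction by qPCR and immunofluorescence. Whether reads from the deleted part of Zeb2 were fewer was not tested here, so these counts do not show that the deletion failed. For all genes below, fewer cells of a type and less RNA per cell cannot be told apart in tissue of this kind.

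Per length of the longest coding transcript, Ltbp4 had the highest level of the members, with a mean of 21.9 CPM per kb over the 6 libraries, and it ranked above Tgfb3 in 6 of 6 libraries. Tgfb3 followed at 9.52 CPM per kb, then Ltbp2 at 8.19, Tgfbr2 at 7.66, Tgfbr3 at 5.56, Tgfbr1 at 5.45, Ltbp1 at 5.33 and Ltbp3 at 4.30 CPM per kb. Tgfb2 and Tgfb1 were lowest, at 2.01 and 1.80 CPM per kb. Tgfb2 was above Tgfb1, however, in 6 of 6 libraries. The places of Tgfb3 and Ltbp2 rested on WT replicate 2, since Tgfbr2 was above each of them in the other 5 of 6 libraries, and Ltbp1 was above Tgfbr1 in 4 of 6. Leaving out WT replicate 2, the order was Ltbp4 (18.5 CPM per kb), Tgfbr2 (6.59), Tgfb3 (5.56), Tgfbr3 (5.40), Ltbp1 (5.38), Tgfbr1 (4.16), Ltbp2 (3.87), Ltbp3 (3.00), Tgfb2 (1.76) and Tgfb1 (1.60). With all 6 libraries, the ranges of neighbours in the order overlapped in every case. Tgfb3 was the main ligand transcript in each library, and its share of the ligand CPM per kb was 63.4%, 82.7% and 60.5% in WT and 61.8%, 66.5% and 60.5% in Zeb2 cKO hearts.

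**Figure D1:**
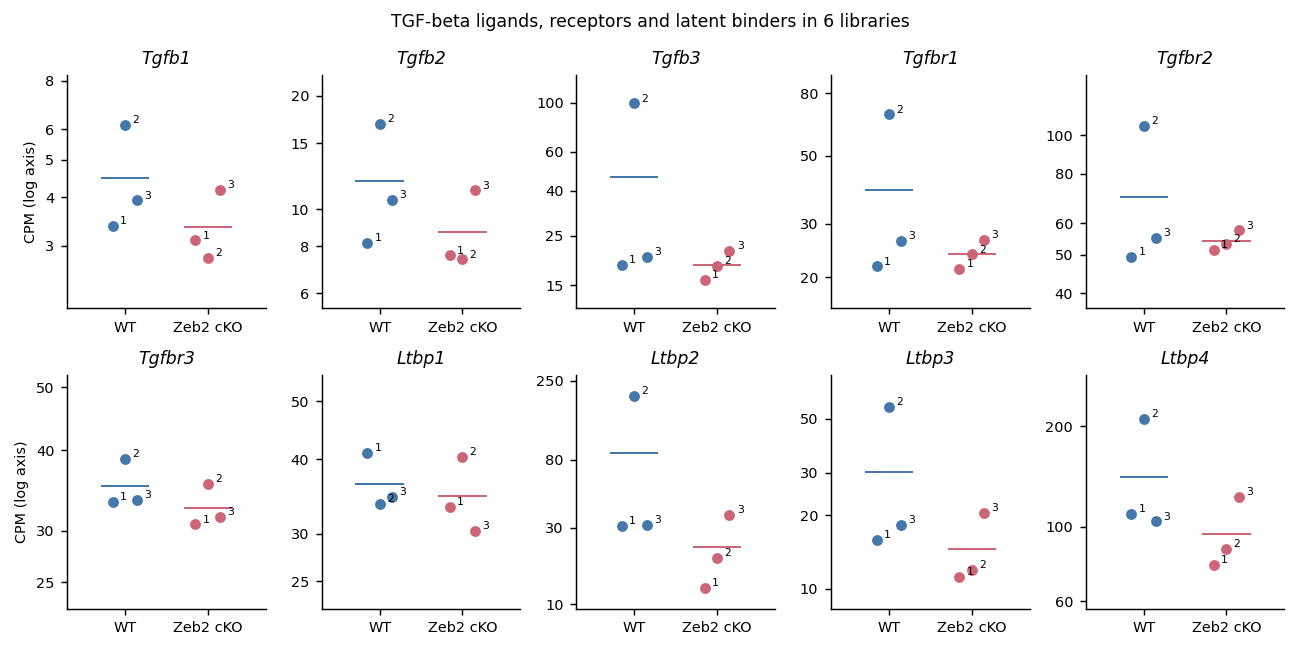
CPM (log axis) of the 10 members in each library, with WT in blue, Zeb2 cKO in red, replicate numbers beside the points and a line at the mean of each group of 3. WT replicate 2 is the highest library for 9 of the 10 members, and the remaining WT libraries lie within or near the range of the Zeb2 cKO libraries.

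Whether loss of Zeb2 from cardiomyocytes was accompanied by a change in the TGF-beta system of the infarcted heart was asked by comparing Zeb2 cKO with WT libraries. After Benjamini-Hochberg adjustment over all 14761 genes, edgeR's quasi-likelihood test called 0 of the 10 members, and it called 0 genes in all (0% of those tested), beside 278 genes (1.88%) at an unadjusted p under 0.05. With the Wald test of DESeq2, 2 genes in all and 0 members were called. Fold changes of all 10 members were below 0, where 51.5% of all tested genes were. In 8 members the log2 fold change was under -0.2, against 22.7% of all genes, and an unadjusted p under 0.05 in 1 member, Ltbp2, against 0.86% of all genes in the lower direction. The median log2 fold change of the members was -0.51, and that of all tested genes was -0.0070. Without WT replicate 2 the members' median was -0.11, with 9 members below 0 (49.2% of all genes) and 2 under -0.2 (11.3%). An unadjusted p under 0.05 was found for 0 members, against 2.53% of all genes in either direction and 154 of 14761 in the lower direction. WT and Zeb2 cKO libraries overlapped in each member, both with all libraries (6.35% of all genes did not overlap) and without WT replicate 2 (15.4%).

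Tgfb1, the ligand most studied in cardiac fibrosis, was at 3.37, 6.15 and 3.93 CPM in WT (4.49 ± 1.47, n = 3), whereas Zeb2 cKO hearts had 3.10, 2.79 and 4.19 CPM (3.36 ± 0.735, n = 3), where ± gives the SD here and below. WT replicate 2 was highest, and Zeb2 cKO replicate 3 was above the remaining WT libraries. The log2 fold change was -0.42 (SE 0.27, 95% interval -1.07 to 0.23) and -0.11 without WT replicate 2. Tgfb1 had the fewest counts of the members, 121 to 270 per library.

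Tgfb2, a ligand with a known role in heart development, was at 8.15, 16.9 and 10.6 CPM in WT (11.9 ± 4.51, n = 3) and at 7.55, 7.38 and 11.2 CPM in Zeb2 cKO hearts (8.72 ± 2.18, n = 3). The libraries stood in an order close to that of Tgfb1, with WT replicate 2 highest and Zeb2 cKO replicate 3 next. Its log2 fold change was -0.45 (SE 0.30, interval -1.16 to 0.26) and -0.098 without WT replicate 2.

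Tgfb3 was at 18.4, 99.3 and 20.1 CPM in WT (45.9 ± 46.2, n = 3) and at 15.9, 18.3 and 21.4 CPM in Zeb2 cKO hearts (18.5 ± 2.76, n = 3). A single library made the difference in means, since WT replicate 2 was at 5.16 times the mean of the other WT libraries, and Zeb2 cKO replicate 3 was above both of these. Its log2 fold change of -1.31 (SE 0.65, interval -2.86 to 0.23, adjusted p = 0.957) became -0.054 (interval -0.38 to 0.27) without this library. The excess of Tgfb3 over Tgfb1 within a library, which does not depend on scaling, was 2.45, 4.01 and 2.35 on the log2 scale in WT and 2.36, 2.71 and 2.35 in Zeb2 cKO hearts. This ratio differed by -0.46 between groups (exact permutation test, two-sided p = 0.6) and by 0.072 without WT replicate 2. The ratio of Tgfb2 to Tgfb1 stayed between 1.27 and 1.46 in all 6 libraries, WT replicate 2 included.

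Tgfbr1, the type I receptor kinase, was at 21.8, 68.3 and 26.3 CPM in WT (38.8 ± 25.7, n = 3) and at 21.4, 23.8 and 26.5 CPM in Zeb2 cKO hearts (23.9 ± 2.57, n = 3). Apart from WT replicate 2 the 5 libraries lay within 0.31 of each other on the log2 scale. With all libraries the log2 fold change was -0.70 (SE 0.42, interval -1.70 to 0.30), and it was -0.0034 (interval -0.31 to 0.30) without WT replicate 2.

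Tgfbr2, the type II receptor that binds the ligand, was at 49.4, 105.3 and 55.0 CPM in WT (69.9 ± 30.8, n = 3) and at 51.5, 53.2 and 57.5 CPM in Zeb2 cKO hearts (54.1 ± 3.11, n = 3). Its other 5 libraries were closer still, within 0.22 on the log2 scale. On the log2 scale the fold change was -0.37 (SE 0.29, interval -1.06 to 0.31), and it changed sign to 0.053 (interval -0.18 to 0.29) without WT replicate 2.

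Tgfbr3, the co-receptor betaglycan, was at 33.2, 38.7 and 33.5 CPM in WT (35.1 ± 3.09, n = 3) and at 30.7, 35.5 and 31.6 CPM in Zeb2 cKO hearts (32.6 ± 2.56, n = 3). In WT replicate 2 it was at 1.16 times the mean of the other WT libraries, where Tgfbr1 was at 2.85 and Tgfbr2 at 2.02 times. The log2 fold change was -0.11 (SE 0.12, interval -0.40 to 0.18) and -0.032 without this library. In receptor make-up, the share of Tgfbr3 was 35.6%, 20.4% and 32.6% in WT and 33.3%, 35.2% and 30.7% in Zeb2 cKO hearts, while that of Tgfbr2 stayed between 39.8% and 42.1% in all libraries.

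**Figure D2:**
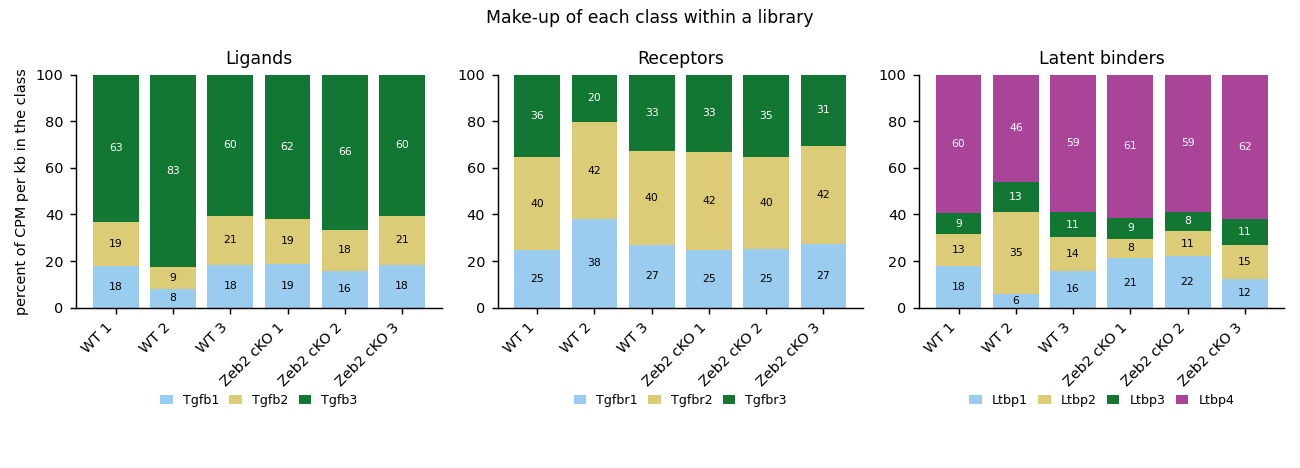
Percent of the summed CPM per kb that each ligand, receptor and latent binder took in its class, for each library (bars stack to 100%). In WT replicate 2 Tgfb3 took 82.7% of the ligands, Tgfbr1 took 38.0% of the receptors and Ltbp2 took 35.1% of the latent binders, each the highest share among the 6 libraries.

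Among the latent binders, Ltbp1, which is covalently joined to the latent complex, was at 41.0, 33.7 and 34.6 CPM in WT (36.4 ± 3.98, n = 3) and at 33.3, 40.4 and 30.4 CPM in Zeb2 cKO hearts (34.7 ± 5.14, n = 3). It was the only member of the 10 whose highest library was not WT replicate 2. The groups covered nearly the same range. Between groups the log2 fold change was -0.071 (SE 0.15, interval -0.43 to 0.29), and it changed sign when WT replicate 1 (0.023) or Zeb2 cKO replicate 3 (0.016) was left out.

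Ltbp2, which binds fibrillin but is known not to bind latent TGF-beta, was at 31.0, 201.7 and 31.5 CPM in WT (88.0 ± 98.4, n = 3) and at 12.7, 19.5 and 36.3 CPM in Zeb2 cKO hearts (22.8 ± 12.2, n = 3). WT replicate 2 was at 6.46 times the mean of the other WT libraries, the largest such ratio among the members. Zeb2 cKO replicates 1 and 2 were below all WT libraries, and Zeb2 cKO replicate 3 was above 2 of them. Ltbp2 had a log2 fold change of -1.95 (SE 0.82, interval -3.89 to -0.0045), with an unadjusted p of 0.0496 and an adjusted p of 0.957 from edgeR. Without WT replicate 2 it was -0.45 (interval -1.31 to 0.42), and over all libraries left out in turn it ran from -2.45 to -0.45.

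Ltbp3, which like Ltbp1 and Ltbp4 carries latent ligand, was at 15.9, 56.1 and 18.3 CPM in WT (30.1 ± 22.5, n = 3) and at 11.2, 11.9 and 20.6 CPM in Zeb2 cKO hearts (14.5 ± 5.21, n = 3). As for Ltbp2, Zeb2 cKO replicates 1 and 2 were below all WT libraries and replicate 3 was not. For Ltbp3 the log2 fold change was -1.05 (SE 0.52, interval -2.28 to 0.18) and -0.23 (interval -0.83 to 0.37) without WT replicate 2.

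Ltbp4, which also takes part in elastic fibre assembly, was at 109.3, 210.6 and 103.9 CPM in WT (141 ± 60.1, n = 3) and at 77.0, 86.1 and 122.6 CPM in Zeb2 cKO hearts (95.2 ± 24.1, n = 3). The same order recurred, with Zeb2 cKO replicates 1 and 2 lowest. Its log2 fold change was -0.57 (SE 0.32, interval -1.34 to 0.20) and -0.16 (interval -0.61 to 0.29) without WT replicate 2.

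**Figure D3:**
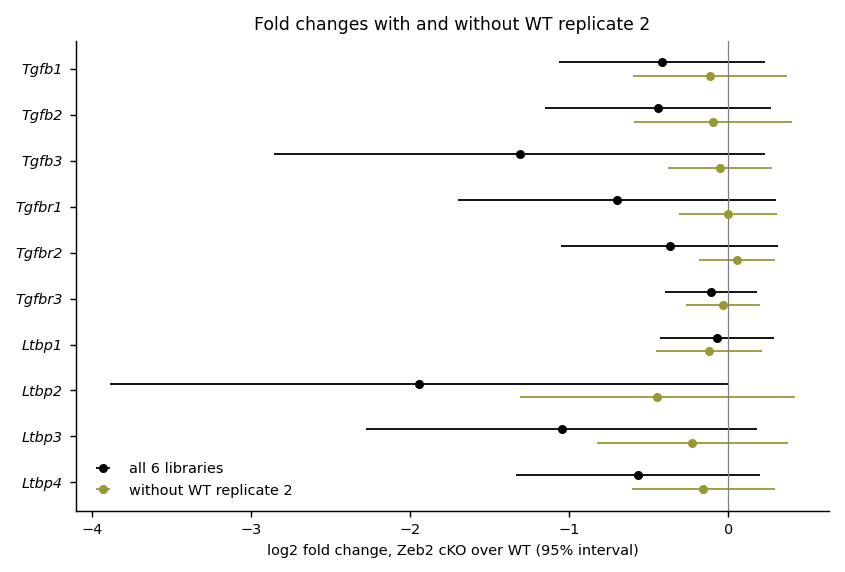
Log2 fold change (Zeb2 cKO over WT) of each member from edgeR with its 95% interval, with all 6 libraries (black) and without WT replicate 2 (olive). Ltbp2 is the only interval that does not cover 0 with all libraries (-3.89 to -0.0045), and without WT replicate 2 all 10 intervals cover 0.

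Relative to Ltbp4 in the same library, Ltbp2 was at -1.82, -0.063 and -1.72 on the log2 scale in WT and at -2.61, -2.14 and -1.75 in Zeb2 cKO hearts. The difference was -0.97 (exact permutation test, two-sided p = 0.2), and -0.40 without WT replicate 2. For Ltbp3 over Ltbp4 the difference was -0.34 (exact p = 0.2; -0.096 without WT replicate 2), and for Ltbp1 over Ltbp4 it was 0.44 (exact p = 0.5; 0.062 without WT replicate 2). For the summed latent binders over the summed ligands it was 0.041 (exact p = 0.8), and -0.14 without WT replicate 2. Of 8 such ratios compared, adjusted exact permutation p-values ran from 0.8 to 0.9, and since 3 libraries against 3 cannot give a p under 0.1, these tests could not have passed 0.05.

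Fold changes without WT replicate 2 rested on 2 WT libraries, so that their intervals are those of 5 libraries with a pooled spread. Within the Zeb2 cKO group, replicate 3 was above the mean of the other Zeb2 cKO libraries in 8 members, by 2.26 times for Ltbp2, 1.78 times for Ltbp3, 1.51 times for Tgfb2 and 1.50 times for Ltbp4, and below it for Tgfbr3 (0.953 times) and Ltbp1 (0.825 times). Markers of other cell types moved with WT replicate 2 in part. Fibroblast markers (12 of 12 tested) summed to 539 to 2596 CPM in WT and to 584 to 689 CPM in Zeb2 cKO libraries, and macrophage markers (12 of 12) to 239 to 900.5 and 284 to 308 CPM. Cardiomyocyte markers (12 of 12) summed to 37960 to 73270 CPM in WT and 60230 to 72930 CPM in Zeb2 cKO libraries. The defining markers of these types (Pdgfra, Tcf21 and Dpt, Csf1r, Adgre1 and C1qa, and Myh6, Tnnt2 and Tnni3) were above 0 in all libraries. With the mean of the fibroblast markers or of the macrophage markers as a covariate, the median log2 fold change of the members was -0.15 in each case.

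**Figure D4:**
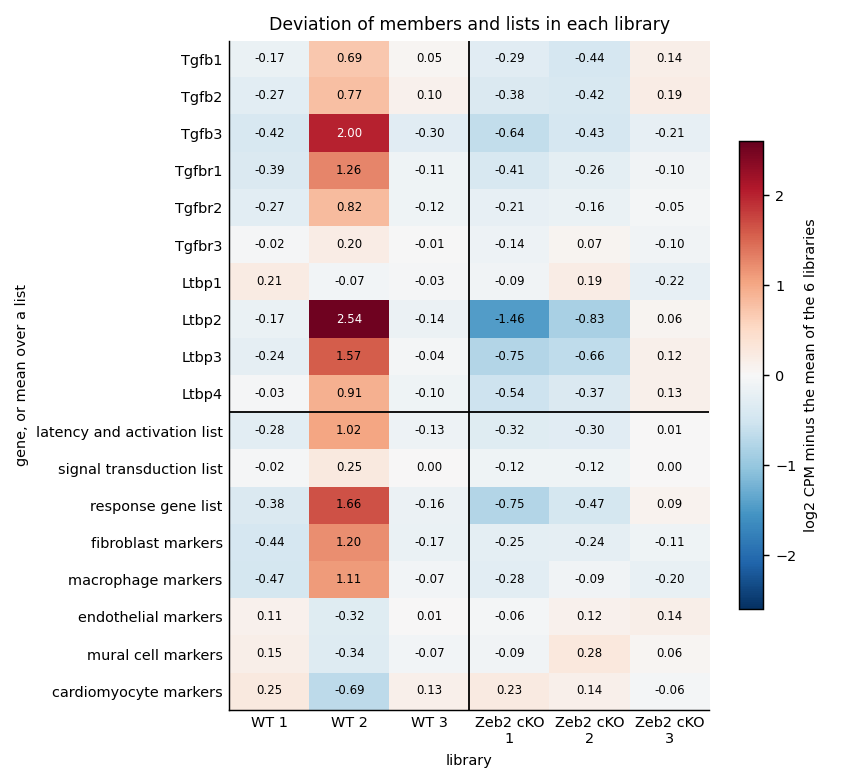
Log2 CPM of each member, and mean log2 CPM of each list below the line, minus the mean of the 6 libraries (red above, blue below). In WT replicate 2, Ltbp2 (2.54), Tgfb3 (2.00) and the response gene list (1.66) deviate most, fibroblast (1.20) and macrophage (1.11) markers lie above the mean and cardiomyocyte markers (-0.69) below it.

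Genes that act on latent TGF-beta outside the cell were followed with a list of 23 genes, of which 22 were tested (Plg, the precursor of plasmin, was not). Of these, 0 passed the adjusted threshold, 19 were below 0 (51.5% of all genes), 16 were under -0.2 (22.7%) and 2 were over 0.2 (15.9%), with a median log2 fold change of -0.53. When WT replicate 2 was left out, 13 were below 0 (49.2%), 3 were under -0.2 (11.3%) and 4 were over 0.2 (13.7%), with a median of -0.052. The smallest p belonged to Thbs1, a matrix protein that activates latent TGF-beta, at 34.0, 239 and 37.6 CPM in WT and 24.2, 28.9 and 39.6 CPM in Zeb2 cKO hearts. Its log2 fold change was -1.75 (SE 0.77), and -0.21 without WT replicate 2. The fibrillin Fbn2, to which latent binders attach, had a log2 fold change of -1.32 (SE 0.61; -0.31 without WT replicate 2). The proteoglycan fibromodulin (Fmod) had a log2 fold change of -2.31 (SE 1.12), which was 0.32 without WT replicate 2.

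Of 28 signal transduction genes, all were tested and 0 passed. Of them, 20 were below 0 (51.5% of all genes) and 11 were under -0.2 (22.7%), with a median of -0.11. When WT replicate 2 was left out, 21 were below 0 (49.2%) and 5 under -0.2 (11.3%), with a median of -0.065. These genes, in contrast to the ligands, summed to only 1.22 times the mean of the other WT libraries in WT replicate 2. Smad7, the inhibitory Smad that Smad3 induces, was at 10.5, 10.5 and 10.9 CPM in WT and 8.55, 8.37 and 9.86 CPM in Zeb2 cKO hearts. All Zeb2 cKO libraries lay below all WT libraries, as they did for 3 genes of this list and for 2.99% of all tested genes. The log2 fold change of Smad7 was -0.26 (SE 0.12, unadjusted p = 0.0644, adjusted p = 0.957 from edgeR), and -0.26 without WT replicate 2. Pmepa1, an inhibitor of Smad signalling, had a log2 fold change of -1.07 (SE 0.50; -0.20 without WT replicate 2). For Ski, a Smad co-repressor, it was -0.32 (SE 0.16; -0.22 without WT replicate 2).

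Response genes, which TGF-beta is known to induce, numbered 29, of which 28 were tested (Il11 was not). In these, 0 passed, 28 were below 0 (51.5% of all genes) and 26 were under -0.2 (22.7%), with a median of -0.93. An unadjusted p under 0.05 from edgeR was found for 3 (0.86% of all genes in the lower direction). Without WT replicate 2, however, 15 were below 0 (49.2% of all genes), 6 were under -0.2 (11.3%) and 5 were over 0.2 (13.7%). Their median was then -0.017, beside 0.0024 for all tested genes. Lox, which crosslinks collagen, was at 14.4, 209.1 and 19.9 CPM in WT and 9.13, 10.9 and 21.7 CPM in Zeb2 cKO hearts. Its log2 fold change was -2.54 (SE 1.05), and -0.30 without WT replicate 2.

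Another of these genes moved less with WT replicate 2. Junb, a subunit of the AP-1 transcription factor, was at 11.6, 7.32 and 9.21 CPM in WT and 5.89, 7.05 and 6.07 CPM in Zeb2 cKO hearts, with all Zeb2 cKO libraries below all WT libraries. Its log2 fold change was -0.57 (SE 0.19, unadjusted p = 0.0212 from edgeR), and -0.72 without WT replicate 2. It did not pass adjustment (adjusted p = 0.957 from edgeR).

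**Figure D5:**
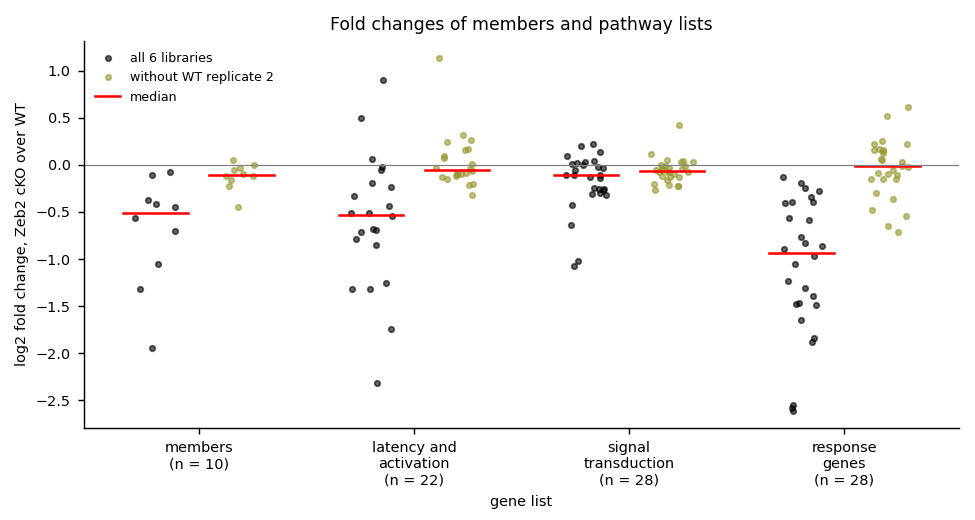
Log2 fold change (Zeb2 cKO over WT) of each tested gene among the members and 3 pathway lists, with all 6 libraries (black) and without WT replicate 2 (olive), and the median in red. The medians are -0.51, -0.53, -0.11 and -0.93 with all libraries, and all lie between -0.11 and -0.017 without WT replicate 2.

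The genes whose log2 CPM followed each ligand most closely over the 6 libraries were sought among 12317 genes, as a description in which WT replicate 2 weighs heavily. For Tgfb1 these were Mex3c (Pearson's r = 0.998), Pak2 (0.997) and Edc3 (0.997), and for Tgfb2 they were Synpo (0.999), Pabpc1 (0.998) and Efhd2 (0.998). For Tgfb3 they were Mbtd1, Col3a1 and Lsp1 (each 0.999). Without WT replicate 2, over 5 libraries, r was 0.994, 0.994 and 0.991 for Mex3c, Pak2 and Edc3, 0.999, 0.998 and 0.994 for Synpo, Pabpc1 and Efhd2, and 0.986, 0.975 and 0.959 for Mbtd1, Col3a1 and Lsp1. The named genes were picked with these 5 libraries among the 6, so their r over the 5 is not an independent check. Of the 45 pairs of members, 37 had a positive r with a median of 0.906, and without WT replicate 2 there were 32, with a median of 0.703. A background from pairs of other genes is not given. Whether members go together more than other genes do is therefore not shown.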

How the data were processed

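RNA of 3 WT and 3 Zeb2 cKO hearts was sequenced as stranded, rRNA-depleted, single-end reads of 75 bases. The authors aligned the reads to GRCm38 and counted them per Gencode M4 gene with a STAR workflow, and they deposited raw counts without normalization; STAR's version and strand option are not given in the sources used here. Columns were matched to samples by name, and 0 were left unmatched. Symbols and sequences came from Gencode M21 and RefSeq (GRCm38.p6), by gene identifier; a symbol was found for 14587 of 14761 tested genes.

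Counts were scaled by TMM, filtered with filterByExpr defaults and tested with glmQLFit and glmQLFTest in edgeR 4.0.16 (R 4.3.3), by genotype, a prior count of 0.125 for fold changes and Benjamini-Hochberg adjustment over all tested genes (called at 0.05). Ratios were compared with exact permutation tests, two-sided. Alignments used BLAST 2.17.0 (Python 3.11.15). Scripts were tested on simulated data. The authors' DESeq was not used; DESeq2 1.42.0 and limma 3.58.1 were run as alternatives, along with other normalizations, filters, dispersions, marker covariates, a replicate block and leaving out each library. Depth was 37288174 to 51136331 counts, with a common biological coefficient of variation of 0.244, so the spread between samples sets the precision. Each sample came from a separate mouse, per the labels.

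Members and lists were chosen with earlier results of these data known. Named were Zeb2, the 10 members, the 3 genes of each pathway list with the smallest unadjusted p, the 3 genes most correlated with each ligand (mean CPM of at least 1), and the first 3 genes of each marker list as defining markers. Some items that the rule names are not reported here.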

Additional observations from a re-analysis of the deposited data

How the results depend on the processing

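The count of members called was 0 in every alternative run. The count of genes called was also 0 in each, except that DESeq2's Wald test called 2 genes. Of 180 recomputed fold changes of members, 177 kept their direction. The exceptions were Tgfbr2 without WT replicate 2 (0.053, the end of a range from -0.57) and Ltbp1 without WT replicate 1 (0.023) or Zeb2 cKO replicate 3 (0.016), in a range from -0.19. The median log2 fold change of the members ran from -0.73 to -0.11 when libraries were left out in turn. It was -0.15 with either the fibroblast or the macrophage covariate, and between -0.53 and -0.45 in the other settings. At an unadjusted p under 0.05, 1 member passed with all libraries, 4 without WT replicate 1, 2 without WT replicate 3, 3 without a filter on low counts, 3 with DESeq2 and 1 without mitochondrially encoded genes. In the other 12 of 17 alternatives 0 members passed, so the unadjusted p of Ltbp2 (0.0496) fell short in them. Over all genes 1114 passed without WT replicate 1, 366 without WT replicate 3, 600 without a filter, 361 with DESeq2 and 280 without mitochondrially encoded genes, against 278. Among the other settings, 122 passed without Zeb2 cKO replicate 1, 176 without Zeb2 cKO replicate 2 and 443 with the fibroblast covariate.

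The log2 ratio of Tgfb3 to Tgfb1 differed by -0.76 to 0.072 with libraries left out in turn, and it reversed without WT replicate 2. The difference ran from -0.072 to 0.027 for Tgfb2 over Tgfb1 (above 0 without WT replicate 2, WT replicate 3 or Zeb2 cKO replicate 1). For Tgfbr3 over Tgfbr2 it ran from -0.089 to 0.35 and for the summed latent binders over the summed ligands from -0.14 to 0.20, each below 0 without WT replicate 2. The cause was not tested.

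Same-numbered samples correlated at 0.0901, -0.135 and -0.0874 in their deviations from the group means, so the numbers were not taken as pairs. With the replicate block 0 genes and 0 members were called, 245 genes had an unadjusted p under 0.05, and the members' median was -0.45.

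Leaving out a library leaves a group with 2, whose spread is pooled. Tgfb1, at 121 to 270 counts, carries the largest counting error of the members. The remaining WT libraries are too few to say which level is usual for these hearts.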

Other observations

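Cell types were followed with marker lists. Endothelial markers (12 of 12 tested, among them Pecam1, Cdh5 and Kdr) summed to 558 to 775.5 CPM in WT and 683 to 798 CPM in Zeb2 cKO libraries, with a median log2 fold change of 0.15 (0.021 without WT replicate 2). Mural cell markers (9 of 9, among them Myh11, Rgs5 and Cspg4) summed to 687 to 1055 and 955 to 1059 CPM, with a median of 0.19 (0.077 without WT replicate 2). For fibroblast, macrophage and cardiomyocyte markers the medians were -0.49, -0.79 and 0.16, and 0.097, 0.026 and -0.083 without WT replicate 2. In each of these lists 0 genes passed adjustment with edgeR.

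Mesothelial markers (5 of 5 tested, among them Msln, Upk3b and Upk1b) summed to 2.10, 8.64 and 2.16 CPM in WT and to 4.30, 6.75 and 2.75 CPM in Zeb2 cKO libraries. WT replicate 2 was again highest. With all libraries 3 of the 5 were below 0 and 2 were over 0.2 (15.9% of all genes), with a median log2 fold change of -0.0033. Without WT replicate 2 all 5 had a log2 fold change over 0.2 (13.7% of all genes), with a median of 1.15. With edgeR, 2 of them had an unadjusted p under 0.05 (219 of 14761 genes in the higher direction) and 0 passed adjustment. Adipocyte markers (0 of 5 tested, at 25 or fewer counts per library for Adipoq, Plin1 and Cidec) summed to 0.137 to 0.26 CPM in WT and 0.484 to 1.30 CPM in Zeb2 cKO libraries. These ranges do not overlap, as for 6.35% of all tested genes in either direction. Plin1 had only 1 to 2 and Cidec 2 to 3 counts per WT library, and the difference was not tested. Lymphocyte, neutrophil and platelet markers had 3 of 6, 3 of 5 and 3 of 5 genes tested, with medians of -0.36, -0.78 and 0.35, and 0 genes of these lists passed adjustment. Cd3e was at 0 in 1 WT library, and Cd3g, Cd79a, S100a8, S100a9, Csf3r, Pf4, Ppbp and Itga2b were above 0 in all libraries.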
